A study of Mus musculus with 8 samples.

Results

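The Hoxc cluster is a row of 9 homeobox genes on mouse chromosome 15, and all 9 were taken by name from the RefSeq positions of GRCm38.p6, the coordinates of mm10, out of 21631 protein-coding genes. In order along the chromosome they are Hoxc13, Hoxc12, Hoxc11, Hoxc10, Hoxc9, Hoxc8, Hoxc6, Hoxc5 and Hoxc4, from 102921131 to 103036856, a span of 115.7 kb. They were studied in mesenchymal stem/progenitor cells, the cultured stromal cells of bone marrow, from C57BL/6 mice at passages 5 to 10. Chromatin immunoprecipitation sequencing gave H3K4me2, H3K4me3 and H3K27me3 in Asxl1-/- cells and in wild-type cells, and the chromatin regulator ASXL1 in wild-type cells alone. Each of these 7 groups is 1 library, and the allele behind Asxl1-/-, the number of mice and any pooling are not given in the labels. With ASXL1 measured in wild type alone, its loss from Asxl1-/- cells is not checked here. The values are islands, stretches that the authors' peak caller found enriched, each with a start and an end but no read count. A mark that is present in 1 genotype and missing in the other can therefore differ little in signal, and no difference below has a replicate check or a p-value.

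Hox genes code for transcription factors that give cells their position along the body axis. Within a cluster all genes lie in the same direction, those with low numbers act towards the head and those with high numbers towards the tail, and stromal cells of the adult keep part of this pattern from the body site they came from. Polycomb complexes hold unused Hox genes under H3K27me3, while Hox genes in use carry H3K4 methylation over long stretches, and ASXL1 is a Polycomb-group and Trithorax-group protein that forms a histone deubiquitinase with BAP1.

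In Asxl1-/- cells H3K4 methylation reached further along the cluster and H3K27me3 covered slightly less of it. Of the 580 windows of 200 bp that make up the cluster, H3K4me3 covered 77.4% in Asxl1-/- (95% exact interval 73.8 to 80.8) and 43.4% in wild type (39.4 to 47.6). H3K4me2 covered 82.9% (79.6 to 85.9) in Asxl1-/- and 57.1% (52.9 to 61.1) in wild type. H3K27me3 covered 16.0% (13.1 to 19.3) in Asxl1-/- and 20.5% (17.3 to 24.0) in wild type. These intervals cover counting error only, and neighbouring windows of 1 island are not independent. Whether the intervals of the genotypes overlap is therefore no test of a difference between them. Changes of H3K4me3 ran almost entirely in 1 direction, since 39.6 kb were covered in Asxl1-/- alone and 0.2 kb in wild type alone. For H3K4me2 the same lengths were 30.6 kb and 0.6 kb, and for H3K27me3 they were 0 kb and 5.2 kb.

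**Figure D1:**
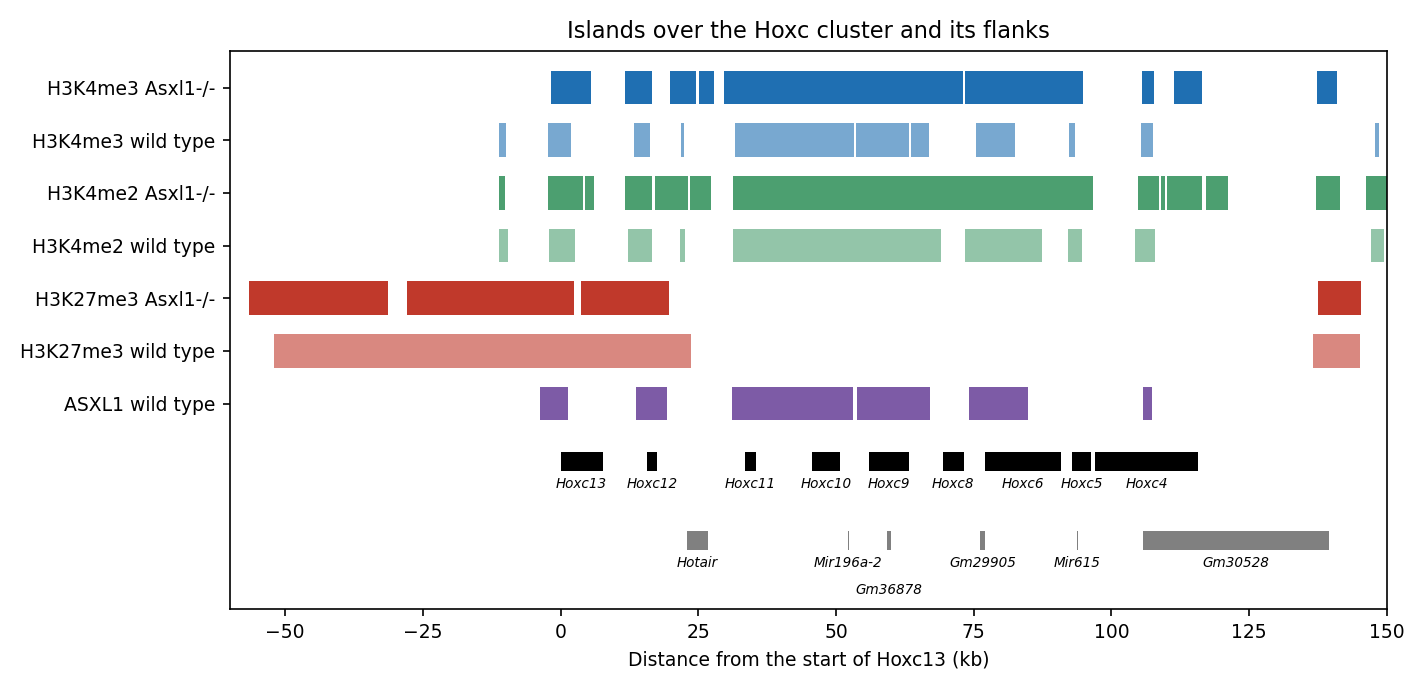
Islands of the 7 lists over the cluster and its flanks, with distance from the start of Hoxc13 in kb on the horizontal axis, 1 row per library, and genes as boxes below (black for the 9 members, grey for other RefSeq genes). H3K27me3 lies over Hoxc13 and Hoxc12 in both genotypes, and from Hoxc11 to Hoxc5 the islands that are separate in wild type form 1 H3K4me2 island of 65.4 kb and 2 H3K4me3 islands of 43.4 and 21.4 kb in Asxl1-/-.

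Averaged over wider regions the H3K4 marks of the same libraries differed less, while the Hoxb cluster differed more in H3K4me3. There it covered 64.4 kb in Asxl1-/- and 0.6 kb in wild type. In Hoxd the direction was opposite, with 4.4 kb in Asxl1-/- and 21.8 kb in wild type. On chromosome 15 outside the cluster the length covered in Asxl1-/- was 1.18 times that of wild type for H3K4me3, 1.03 times for H3K4me2 and 1.21 times for H3K27me3. In the 1 Mb on either side the ratios were 1.23, 1.06 and 0.882, against 1.78, 1.45 and 0.78 in the cluster. Over all autosomes they were 1.06, 0.927 and 1.02. The direction was thus opposite to the cluster's for H3K27me3 on chromosome 15 and the autosomes, and for H3K4me2 on the autosomes. The part of these wider shifts in the cluster's values was not tested. As a check of the cell type, 11 of 12 stromal marker genes, such as Prrx1 and Col1a1, had H3K4me3 at a gene end in both genotypes, and Lepr had it in neither. The mark was absent in both genotypes from 4 of 6 blood genes, among them Ptprc, and from 3 of 4 endothelial genes, among them Pecam1 and Cdh5, and it was present in both at Spi1, Cd68 and Kdr.

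At the level of genes, a member counted as marked when an island lay within 1000 bp of either of its ends. H3K4me3 marked all 9 members in Asxl1-/- and 7 in wild type, and the 2 that gained it were Hoxc8 and Hoxc4. At Hoxc4 the call came from the high-coordinate end alone, since H3K4me3 in Asxl1-/- lay 2097 bp from the low-coordinate end. With Hoxc4 on the plus strand, the gene begins at its low-coordinate end. Over all protein-coding genes 2.24% gained H3K4me3 by this rule, 56.5% kept it and 2.48% lost it, and no member lost it. H3K4me2 marked 9 members in Asxl1-/- and 8 in wild type, with Hoxc4 the gain, where 3.00% of all genes gained it, 61.7% kept it and 1.92% lost it. H3K27me3 marked Hoxc13 and Hoxc12 in both genotypes and no other member in either, so that it was kept at 2 members, against 19.9% of all genes, and gained or lost at none, against 5.07 and 6.81%. Neighbouring members share islands, so these counts are not 9 separate observations. The count of H3K4me3 gains was 1 with a distance of 2500 bp or with any overlap with the gene body, and that of H3K4me2 gains was 2 at 0 bp and 0 at 2500 bp. With lists of equal length for both genotypes 3 members gained H3K4me3, as 6 had it in wild type.

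Measured along the gene bodies, H3K4me3 covered more of 7 members in Asxl1-/-, the same of 2, and less of none. It covered more in Asxl1-/- at 49.1% of all genes with the mark in either genotype. The median difference over the 9 members was 23.8 percentage points, Asxl1-/- minus wild type, against 0.0 over the 13906 genes with the mark in either genotype. For H3K4me2 the median was 24.0 points, against 0.0 over 15301 genes, with 6 members higher in Asxl1-/-, 3 equal and none lower. Of these 15301 genes, 37.6% were higher in Asxl1-/-. A rise of at least 50 points was seen at Hoxc8 and Hoxc6 for H3K4me3, where 1.28% of all genes with the mark rose as much. For H3K4me2 it was seen at Hoxc8 alone of the members, where 0.725% of all genes did. A fall as large was seen at no member, against 0.352% of genes for H3K4me3 and 0.562% for H3K4me2. H3K27me3 changed as much at no member, where 8.94% of genes with the mark had a rise and 7.42% a fall of that size.

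**Figure D2:**
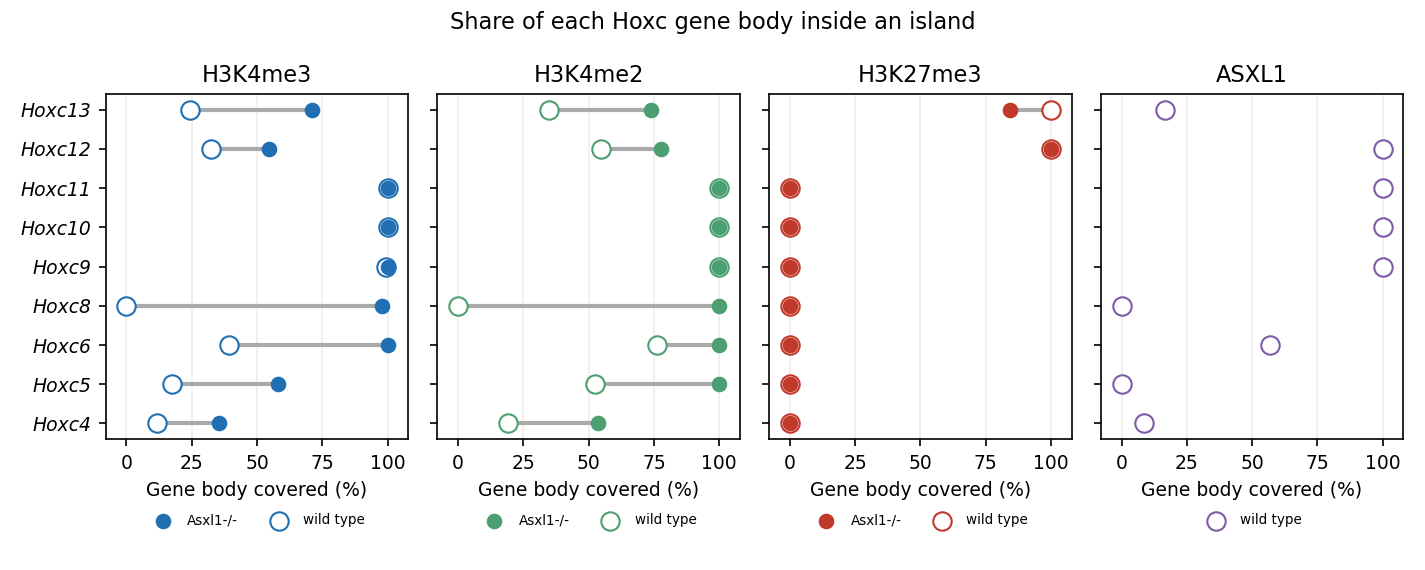
Share of each Hoxc gene body that lies inside an island, in percent, for H3K4me3, H3K4me2, H3K27me3 and ASXL1, with Asxl1-/- as filled and wild type as open circles and 1 library per circle. Hoxc11, Hoxc10 and Hoxc9 are at or near 100% for both H3K4 marks in both genotypes, while Hoxc8 stands at 98% for H3K4me3 in Asxl1-/- and at 0% in wild type.

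The tail-side end of the cluster, Hoxc13 and Hoxc12, was under H3K27me3 with H3K4 methylation inside it. Hoxc13, a regulator of hair keratin genes, was covered by H3K27me3 over 84.4% of its body in Asxl1-/- and over 100% in wild type. Its H3K4me3 coverage was 71.2% in Asxl1-/- and 24.3% in wild type, and its H3K4me2 coverage was 73.8 and 34.7%. The H3K4me3 island at its low-coordinate end was 7.2 kb wide in Asxl1-/- (102919401 to 102926600) and 4.2 kb wide in wild type (102918801 to 102923000). In wild type the H3K27me3 over Hoxc13 was part of a single island of 75.6 kb, from 102869201 to 102944800, which was number 132 of 17712 in width. In Asxl1-/- 3 islands, of 25.2, 30.4 and 16.0 kb, lay over this stretch. The first, from 102864601 to 102889800, began further from Hoxc13 than the wild-type island did. The island over the low-coordinate end of Hoxc13 began 27.9 kb before the gene in Asxl1-/- and 51.9 kb before it in wild type. In Asxl1-/- this was the second island, which began at 102893201, so the nearer start marks a break in H3K27me3 and not its outer limit. The gap between the last 2, of 1.2 kb from 102923601 to 102924800, lay within Hoxc13 and inside the H3K4me3 island.

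Hoxc12 was covered by H3K27me3 over 100% of its body in both genotypes. H3K4me3 covered 54.7% of it in Asxl1-/- and 32.2% in wild type, and H3K4me2 77.6 and 54.7%. The H3K4me3 island at Hoxc12 was 5.0 kb wide in Asxl1-/- (102932801 to 102937800) and 3.0 kb in wild type (102934401 to 102937400), and most of the added width lay on the side of Hoxc13. Between Hoxc13 and Hoxc12 H3K27me3 was complete in both genotypes, and H3K4me3 covered 50.2% in Asxl1-/- and 30.3% in wild type. H3K4me3 and H3K27me3 lay on the same windows over 9.4 kb of the cluster in Asxl1-/- and 5.6 kb in wild type, which is 8.10% (6.01 to 10.6) and 4.83% (3.23 to 6.90) of its windows. Marks on a common window may come from different cells or alleles. Windows with H3K27me3 and neither H3K4 mark made up 6.0 kb in Asxl1-/- and 15.6 kb in wild type.

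The repressed and the active parts met between Hoxc12 and Hoxc11. The long noncoding RNA gene Hotair, known mostly from human cells for its link to Polycomb, lies in this interval. H3K27me3 stopped before Hotair in Asxl1-/- and inside it in wild type. In Asxl1-/- H3K27me3 ended at 102940800, which is 2.19 kb past the end of Hoxc12 and 13.7 kb before Hoxc11. In wild type it ended at 102944800, inside Hotair, 6.19 kb past Hoxc12 and 9.72 kb before Hoxc11. The edge thus lay 4 kb nearer to Hoxc12 in Asxl1-/-.

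What followed the edge also differed between the genotypes. In Asxl1-/- an H3K4me3 island began at 102941001, 0.2 kb after the edge, which is 1 window, and an H3K4me2 island of 6.0 kb (102938201 to 102944200) ran across it. In wild type 7.6 kb without any of the 3 histone marks came after the edge, then H3K4me2 from 102952401 and H3K4me3 from 102952801, which is 8.0 kb past it. Wild type had a small H3K4me3 island of 0.6 kb in this interval, at 102943001 to 102943600, still under H3K27me3. Asxl1-/- had islands of 4.8 kb (102941001 to 102945800) and 2.8 kb (102946201 to 102949000) there. Hotair was covered over 89.7% by each H3K4 mark in Asxl1-/- and by neither in wild type, while H3K27me3 covered 0% of it in Asxl1-/- and 19% in wild type. Of the whole interval between Hoxc12 and Hoxc11, H3K4me3 covered 71.2% in Asxl1-/- and 14.6% in wild type, H3K4me2 72.4 and 19.6%, and H3K27me3 13.8 and 38.9%. A stretch of 1.8 kb from 102949001 to 102950800 had none of the 3 marks in either genotype. Of the 5.2 kb that carried H3K27me3 in wild type alone, 4 kb lay at this edge and 1.2 kb in Hoxc13. H3K4me2 lay on 92.3% of these 5.2 kb in Asxl1-/- and on 23.1% in wild type.

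**Figure D3:**
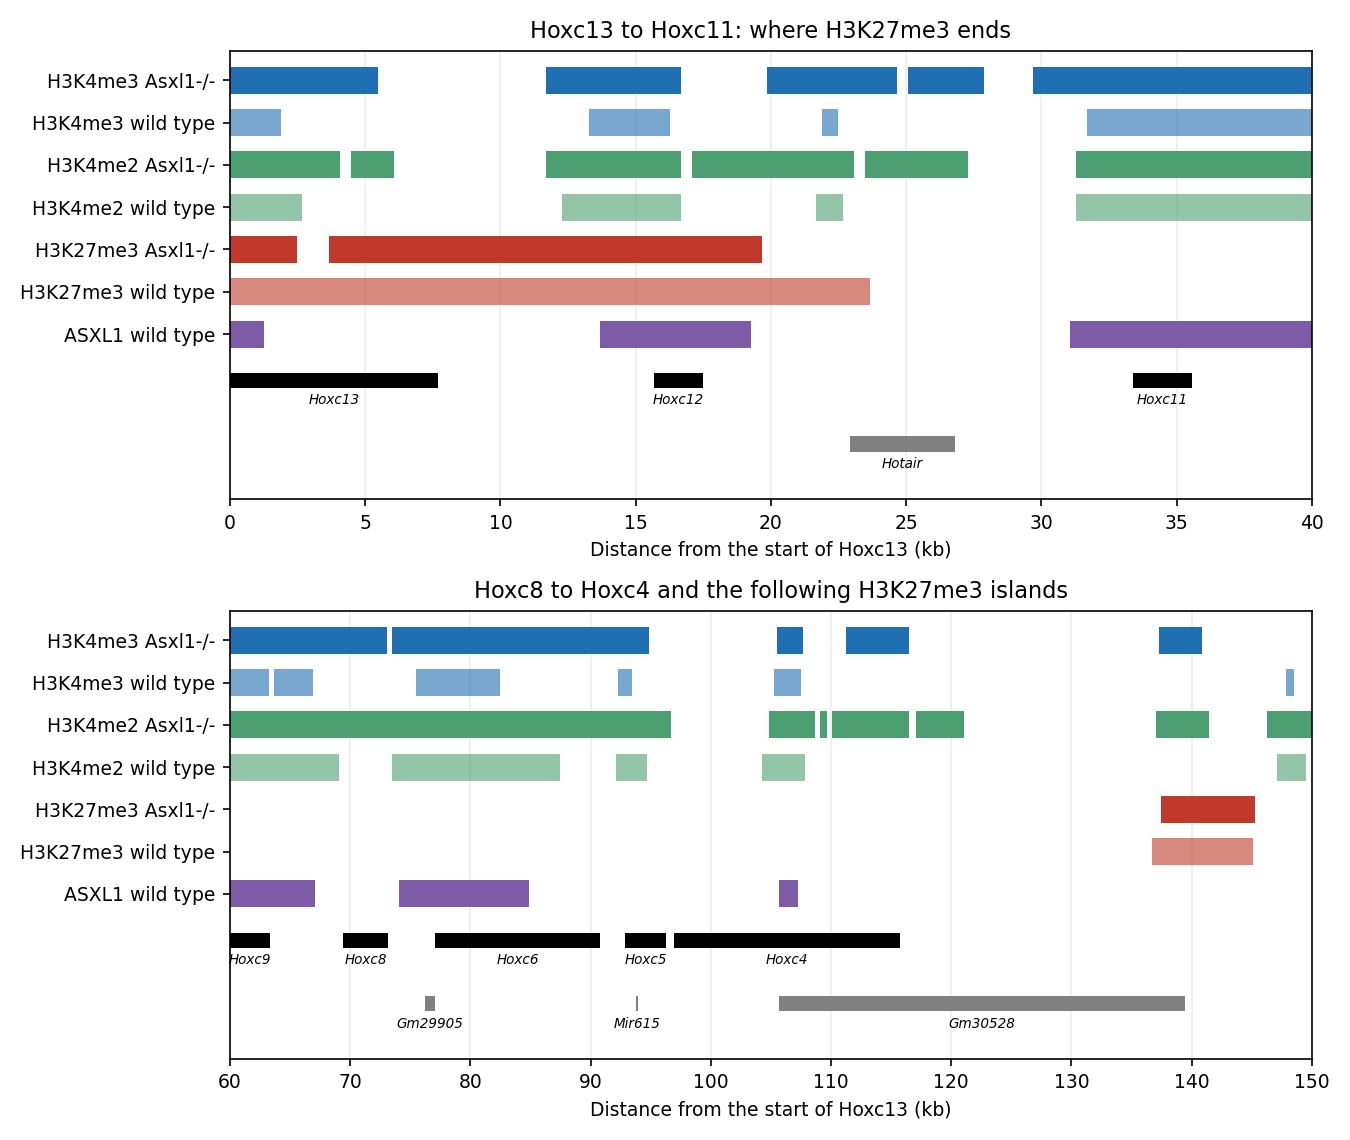
Islands at the edges of the active part, with distance from the start of Hoxc13 in kb on the horizontal axis and 1 row per library. In the upper panel H3K27me3 stops 4 kb nearer to Hoxc12 in Asxl1-/- and H3K4me3 begins within 0.2 kb of it, while in wild type 7.6 kb without a histone mark follow. In the lower panel the wild-type gap over Hoxc8 is filled in Asxl1-/-, and an H3K4me3 island of 3.6 kb lies at the far H3K27me3 island in Asxl1-/- alone.

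Hoxc11, Hoxc10 and Hoxc9 formed the core of the active part and hardly differed in coverage. Wild-type coverage by the H3K4 marks was already at or near 100% there, so a rise in Asxl1-/- could not show. Hoxc10 acts in patterning of the lumbar spinal cord and hindlimb, and Hoxc9 sets the identity of thoracic motor neurons. Both H3K4 marks covered 100% of Hoxc11 and Hoxc10 in both genotypes, and H3K4me3 covered 100% of Hoxc9 in Asxl1-/- and 99.4% in wild type. H3K27me3 was absent from all 3 and from the intervals between them in both genotypes. In Asxl1-/- 1 H3K4me3 island of 43.4 kb, from 102950801 to 102994200, ran from before Hoxc11 into Hoxc8, and it was number 5 of 15276 in width. In wild type 3 islands of 21.6, 9.6 and 3.2 kb lay in this stretch, from 102952801 to 102988000, with gaps of 0.4 kb between them. The widest of them was number 20 of 17884. The H3K4me2 island over these genes was 65.4 kb wide in Asxl1-/- (102952401 to 103017800, number 5 of 33589) and 37.8 kb in wild type (102952401 to 102990200, number 13 of 36048). Both began on the same window.

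The microRNA gene Mir196a-2 lies in this core, between Hoxc10 and Hoxc9 at chr15:102973350-102973434 on the plus strand. Its hairpin was fully covered by H3K4me3 and H3K4me2 in both genotypes and by ASXL1 in wild type, with no H3K27me3. The miR-196 family is known for cutting or repressing Hox messages, among them Hoxb8 and Hoxc8 in the mouse. The same mature RNA is also made from Mir196a-1 in the Hoxb cluster on chromosome 11, where H3K4me3 was absent in both genotypes. H3K27me3 covered 36.3% of that hairpin in Asxl1-/- and 100% in wild type. H3K4me2 covered 36.3% of it in Asxl1-/- and none in wild type. Mir196b in the Hoxa cluster has the same seed, and its hairpin was fully covered by both H3K4 marks in both genotypes. Mir615 lies inside Hoxc5 at chr15:103014910-103015001 on the plus strand, and it changed. H3K4me3 covered 100% of its hairpin in Asxl1-/- and 0% in wild type, while H3K4me2 covered 100% in both. The mature sequences from RefSeq are shown for Mir196a-2 and Mir615, with miR-196b-5p for comparison and the seed, bases 2 to 8, in capitals. The miR-196a-5p sequence is the same from Mir196a-1 and Mir196a-2, so it does not tell these loci apart.
mmu-miR-196a-5p: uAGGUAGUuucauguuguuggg
mmu-miR-196b-5p: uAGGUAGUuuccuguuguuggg
mmu-miR-196a-2-3p: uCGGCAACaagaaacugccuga
mmu-miR-615-3p: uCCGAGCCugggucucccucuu
mmu-miR-615-5p: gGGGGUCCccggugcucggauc
The files hold no RNA, so the level of these microRNAs is unknown.

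Hoxc8, which patterns the thoracic skeleton and brachial motor neurons, showed the widest difference of the members. Its body carried no island of any of the 4 wild-type lists. In Asxl1-/- H3K4me3 covered 98.0% of it and H3K4me2 100%. The wild-type H3K4me2 islands stopped at 102990200, 339 bp before Hoxc8, and began again at 102994601, 326 bp after it, leaving 4.4 kb without any mark. The nearest wild-type H3K4me3 lay 2539 bp before its start and 2326 bp after its end, and the nearest ASXL1 2339 and 926 bp away. The H3K4me3 that Asxl1-/- alone carried here was a run of 6.2 kb, from 102988001 to 102994200, of which 35.5% lay on wild-type H3K4me2. Of all 21631 genes, 35 rose by at least 50 points over the body in both H3K4 marks, and 4 rose as much as Hoxc8 in both, namely Hoxc8 itself and Avpr1a, Tescl and Zrsr1, which are named after their values were seen. H3K27me3 was 49.7 kb away from its start in Asxl1-/- and 45.7 kb in wild type, so no H3K27me3 lay near the gene in either.

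Hoxc6, a gene of thoracic identity, was marked at its low-coordinate end in both genotypes, and the marks reached its other end in Asxl1-/- alone. H3K4me3 covered 100% of its body in Asxl1-/- and 39.4% in wild type, and H3K4me2 100 and 76.0%. The H3K4me3 island was 21.4 kb wide in Asxl1-/- (102994601 to 103016000, number 60 of 15276) and 7.0 kb in wild type (102996601 to 103003600). The longest run of H3K4me3 seen in Asxl1-/- alone lay over Hoxc6, with 9.8 kb from 103003601 to 103013400, of which 53.1% had H3K4me2 and 24.5% had ASXL1 in wild type. Hoxc5 was covered by H3K4me3 over 58.2% in Asxl1-/- and 17.3% in wild type, and by H3K4me2 over 100 and 52.4%. The wild-type H3K4me3 island at Hoxc5 was 1.2 kb (103013401 to 103014600), and in Asxl1-/- it was absorbed into the island of Hoxc6.

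The gene Gm29905 lies directly before Hoxc6, and its promoter is shown as an example of sequence that was marked in both genotypes. The window from RefSeq, 250 bases before to 50 after the start, is chr15:102998118-102998417 on the minus strand of GRCm38.p6. H3K4me3 and H3K4me2 covered it fully in both genotypes, ASXL1 covered it fully in wild type, and H3K27me3 was absent. It holds 12 CpG dinucleotides, in capitals in the line that follows, and 39.9% of the 32619 promoter windows of this length hold as many or more.
Gm29905 promoter: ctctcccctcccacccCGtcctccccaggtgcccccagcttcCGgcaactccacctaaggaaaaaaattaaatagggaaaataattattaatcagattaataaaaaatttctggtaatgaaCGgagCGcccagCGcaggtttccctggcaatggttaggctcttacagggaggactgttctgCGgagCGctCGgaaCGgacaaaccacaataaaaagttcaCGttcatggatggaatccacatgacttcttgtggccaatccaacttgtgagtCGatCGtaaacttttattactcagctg
It holds CCAAT, found on either strand in 37.6% of these windows, and TAATTA, a homeodomain core found in 5.25% of them. A match of letters does not show that a factor binds.

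Hoxc4, the head-side end of the cluster, gained an island that wild type did not have. Hoxc4 is also known from B cells, where it raises expression of the deaminase of antibody genes. H3K4me3 covered 35.5% of its body in Asxl1-/- and 11.7% in wild type, and H3K4me2 53.6 and 19.2%. An H3K4me3 island of 2.2 kb in the middle of the gene was common to the genotypes, at 103026601 to 103028800 in Asxl1-/- and 103026401 to 103028600 in wild type. The further H3K4me3 island, of 5.2 kb from 103032401 to 103037600, was in Asxl1-/- alone, and the nearest wild-type H3K4me3 lay 8.26 kb from that end of the gene. None of the 4.6 kb of it over the cluster's windows carried H3K4me2, ASXL1 or H3K27me3 in wild type. At the other end of Hoxc4, 7.6 kb from 103017801 to 103025400 had none of the 3 marks in either genotype. This was the longest unmarked stretch common to the genotypes, of 10.2 kb in all.

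The RefSeq promoter table holds 1 of the 9 members, Hoxc4, with a start at 103034395 on the plus strand, inside the gained island. The annotated gene begins earlier, at 103018097, so this is a start within the gene. Its promoter, chr15:103034145-103034444, was fully covered by H3K4me3 and H3K4me2 in Asxl1-/- and carried no island of any wild-type list. It is shown because the gain lies on it, with its 9 CpG in capitals, and 46.1% of all promoter windows hold as many or more, with a median of 7.
Hoxc4 promoter: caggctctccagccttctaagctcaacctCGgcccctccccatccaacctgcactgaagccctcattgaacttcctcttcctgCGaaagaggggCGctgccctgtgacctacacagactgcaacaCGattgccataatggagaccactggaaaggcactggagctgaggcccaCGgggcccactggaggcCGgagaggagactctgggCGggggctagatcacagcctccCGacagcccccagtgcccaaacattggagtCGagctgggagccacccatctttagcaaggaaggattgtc
It holds CCAAT on the minus strand. TATAAA, which 13.7% of promoter windows hold on either strand, TAATTA, and the E-box CACGTG, which 7.20% hold, were searched as well and are not among the letters of this window.

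Past Hoxc4 came H3K27me3 again. The next H3K27me3 island was 7.8 kb wide in Asxl1-/- (103058601 to 103066400) and 8.4 kb in wild type (103057801 to 103066200), so it began 21.7 and 20.9 kb after Hoxc4. The last H3K4me2 island to end before it did so at 103042200 in Asxl1-/-, 16.4 kb away, and at 103029000 in wild type, 28.8 kb away. At the near end of that H3K27me3 island Asxl1-/- alone had H3K4me3 of 3.6 kb (103058401 to 103062000) and H3K4me2 of 4.4 kb (103058201 to 103062600). This is the distal start of the gene Gm30528, which runs back into Hoxc4 on the minus strand. The promoter window, chr15:103060506-103060805, was fully covered by H3K27me3 in both genotypes and by both H3K4 marks in Asxl1-/- alone. It holds 12 CpG, in capitals, and is shown as a place where H3K4 methylation appeared on H3K27me3, as it also did beside Hoxc12 and over part of Hoxc13.
Gm30528 distal promoter: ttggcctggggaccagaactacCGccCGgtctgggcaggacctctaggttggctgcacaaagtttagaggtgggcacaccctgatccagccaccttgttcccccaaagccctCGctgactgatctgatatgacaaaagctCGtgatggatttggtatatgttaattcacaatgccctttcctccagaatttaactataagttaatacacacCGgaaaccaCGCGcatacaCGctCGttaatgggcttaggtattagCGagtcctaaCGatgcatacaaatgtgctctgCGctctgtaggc
It holds none of the motifs searched in the other promoters.

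Further along this flank an H3K27me3 island of 3.8 kb (103099601 to 103103400) was in wild type alone, on a place with H3K4me3 of 4.6 kb in Asxl1-/- and 2.2 kb in wild type and with ASXL1 in wild type. The nearest protein-coding genes, Calcoco1 on one side and Smug1 on the other, are 198.952 and 116.433 kb from the cluster. The 3 nearest on each side, Atf7, Atp5g2, Calcoco1, Smug1, Cbx5 and Hnrnpa1, had H3K4me2, H3K4me3 and ASXL1. All 6 kept both H3K4 marks in Asxl1-/-. H3K27me3 was lost at Smug1 and absent from the other 5 in both genotypes.

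ASXL1 in wild type covered 47.1% (42.9 to 51.2) of the cluster in 6 islands, of 1.6 to 22.0 kb, and lay within 1000 bp of an end of 7 members, against 50.4% of all genes. Hoxc8 counted through its high-coordinate end alone, with ASXL1 926 bp away, against 2339 bp at its low-coordinate end. Hoxc5 and Hoxc4 were the 2 without ASXL1 at their ends, although an island of 1.6 kb lay inside Hoxc4. It covered 100% of Hoxc12, Hoxc11, Hoxc10 and Hoxc9, 56.9% of Hoxc6, 16.5% of Hoxc13, 8.53% of Hoxc4 and none of Hoxc8 or Hoxc5. The widest island, 22.0 kb from 102952201 to 102974200, followed the wild-type H3K4me3 island within 600 bp at one edge and 200 bp at the other. The next, 13.2 kb from 102975001 to 102988200, had an H3K4me3 edge within 200 bp at both. Of the ASXL1 windows of the cluster, 94.9% carried H3K4me2, 85.3% H3K4me3 and 12.8% H3K27me3 in wild type. Over all windows of the cluster the wild-type shares were 57.1, 43.4 and 20.5%. H3K27me3 was thus less frequent on ASXL1 windows than over the cluster as a whole. Of ASXL1 windows on the autosomes and the X chromosome, 74.1, 47.4 and 5.06% carried these marks.

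The H3K4me3 that appeared in Asxl1-/- had wild-type ASXL1 about as often as all cluster windows without wild-type H3K4me3. Of the 39.6 kb with H3K4me3 in Asxl1-/- alone, 13.6% had ASXL1 in wild type. All 65.6 kb of the cluster without wild-type H3K4me3 had it over 12.2%. These 65.6 kb include the 39.6 kb, so the shares are not independent. The 50.2 kb with H3K4me3 in both genotypes had ASXL1 over 92.8%, but since ASXL1 lay largely on wild-type H3K4me3 this contrast follows from how the windows were divided. Over the autosomes and the X chromosome 33.7% of the H3K4me3 in Asxl1-/- alone and 77.8% of that in both genotypes had ASXL1. The share of ASXL1 over all genome windows without wild-type H3K4me3 was not computed. The 33.7% therefore cannot be set directly against the 13.6%. Of the 39.6 kb, 36.9% had H3K4me2 in wild type, against 60.2% genome-wide, 22.2% had H3K27me3, against 17.9%, and 92.4% had H3K4me2 in Asxl1-/-, against 75.6%. The differences from the genome were not tested, since the cluster is 1 place in 1 library of each kind.

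**Figure D4:**
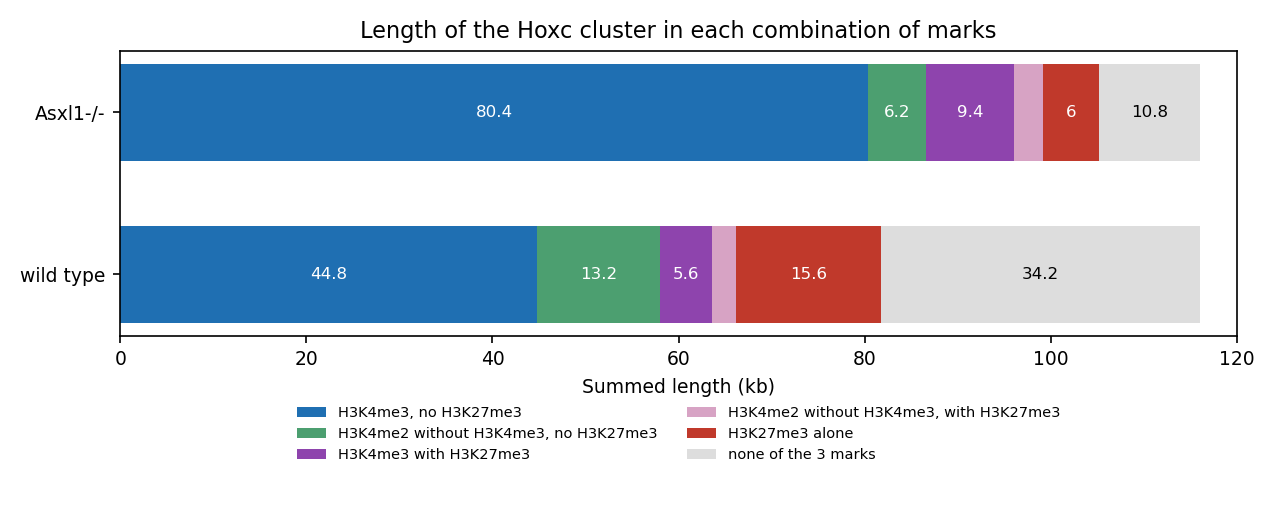
Summed length of the Hoxc cluster, in kb, in each combination of the 3 histone marks, Asxl1-/- above and wild type below, from the 200 bp windows of 1 library per mark and genotype. H3K4me3 without H3K27me3 takes 80.4 kb in Asxl1-/- and 44.8 kb in wild type, and windows with none of the marks 10.8 and 34.2 kb.

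The added H3K4me3 was spread over several wild-type states. Of the 39.6 kb, 18.8 kb (47.5%) had none of the 3 histone marks in wild type, 12.0 kb (30.3%) had H3K4me2 without H3K27me3, 6.2 kb (15.7%) had H3K27me3 without H3K4me2, and 2.6 kb (6.60%) had both. Windows with none of the 3 marks came to 10.8 kb in Asxl1-/- and 34.2 kb in wild type, and 24.0 kb were marked in Asxl1-/- alone, against 0.6 kb in wild type alone. H3K4me3 without H3K27me3 covered 80.4 kb in Asxl1-/- and 44.8 kb in wild type. H3K4me2 with neither other mark covered 6.2 and 13.2 kb. Divided after the values had been seen, the cluster showed H3K4me3 over 59.9% in Asxl1-/- and 27.9% in wild type from Hoxc13 to Hoxc12, and over 100 and 98.5% from Hoxc11 to Hoxc9. From the end of Hoxc9 to that of Hoxc5 it covered 94.5 and 34.6%, and from there to the end of Hoxc4 34.3 and 11.3%.

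The other Hox clusters had other mixtures of the marks. Of the H3K4me3 over the Hoxc cluster, 10.5% in Asxl1-/- and 11.1% in wild type lay on H3K27me3. In Hoxa the shares were 2.74% of 73.0 kb in Asxl1-/- and 35.1% of 71.2 kb in wild type. In Hoxb they were 98.8% of 64.4 kb and 100% of 0.6 kb, and in Hoxd 100% of 4.4 kb and 78.9% of 21.8 kb. H3K4me3 thus covered more in Asxl1-/- in Hoxc and Hoxb, nearly the same in Hoxa and less in Hoxd. Of the 20 Hox genes of the other clusters with a Hoxc gene of the same number, 10 kept H3K4me3, 4 gained it and 6 had it in neither genotype. For H3K27me3, 14 kept it and 4 lost it. All 4 H3K4me3 gains were in Hoxb, and all 4 H3K27me3 losses were in Hoxa. Over all protein-coding genes 56.5% kept H3K4me3 and 2.24% gained it, while 19.9% kept H3K27me3 and 6.81% lost it. Hox proteins bind DNA together with the PBX, MEIS and PKNOX cofactors. All 9 genes of these cofactors kept H3K4me2 and H3K4me3, and the 3 that had H3K27me3 in wild type, Meis3, Pbx4 and Pknox2, lost it, as did 25.5% of the 5779 protein-coding genes that had it in wild type.

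Genes outside the Hox clusters with the most similar pattern were sought by the distance between covered shares of the gene extended by 10 kb on each side, over the 7 lists, where 0 means equal shares. Nearest to Hoxc10 were Midn (0.03) and Znhit2 (0.04), and nearest to Hoxc8 were Ndufs7 (0.11) and Phf23 (0.18). Around Ndufs7 H3K4me3 covered 97.8% in Asxl1-/- and 53.4% in wild type, and around Hoxc8 98.3 and 59.2%. Nearest to Hoxc13 was Irx3 (0.18), a homeobox gene, with H3K27me3 over 93.1% in Asxl1-/- and 97.9% in wild type, against 95.7 and 100% around Hoxc13. Nearest to Hoxc4 were Il4ra (0.15), the interleukin 4 receptor gene, and Tmem88b (0.16). The least matched member was Hoxc12, whose nearest gene, Otos, lay at 0.31.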

How the data were processed

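Per the submitters' processing notes, reads were aligned with BWA and islands were called with SICER 1.1 on mm10. For the BWA version, caller settings, control and false discovery rate, nothing is given in the sources used here. Each deposited list holds positions only, on a grid of 200 bp, which leaves depth unknown. They list 15276 to 36048 islands per library. The smallest gap between islands of a list was 400 bp for H3K4me2 and H3K4me3 and 800 bp for H3K27me3 and ASXL1. Starts were moved to count from 1. The input library was not analysed here. Islands were set against RefSeq genes of GRCm38.p6, which gives no strand, exon or transcript, so a gene counted as marked with an island within 1000 bp of either end. Genes on the autosomes and the X chromosome were used. Shares have exact Clopper-Pearson intervals, for counting error only, and the genotypes, with 1 library per mark each, were compared without a test. Named genes are the members, other RefSeq genes within the cluster, the nearest 3 protein-coding genes on each side, cofactors, cell type markers, and the 2 genes nearest in pattern to each member. Avpr1a, Tescl, Zrsr1, Mir196a-1 and Mir196b were added after values were seen. Islands were recomputed after filtering by width, equalising list lengths, merging gaps and trimming edges. Members and lists were chosen with earlier results of these data known. Code was tested on simulated lists. Calculations used Python 3.11.15, numpy 2.4.6, pandas 2.3.3 and scipy 1.17.1.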

Additional observations from a re-analysis of the deposited data

How the results depend on the processing

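Each of 33 values was recomputed under 5 to 7 of 9 alternatives, 197 values in all, of which 184 stayed within the limits set for them (the 95% interval of a share or difference, 1.5 times a count, 1 window for an edge). No genotype difference in a covered share of the cluster changed sign. Leaving out islands under 1000 bp, merging gaps up to 800 bp and trimming island edges by 200 bp moved none past these limits. For an edge the trimming could not, since it shifts each edge by exactly that 1 window. Leaving out small islands cannot move the edge of a wide one. Equalising list lengths leaves ASXL1 and the shorter list of each mark unchanged, so such agreements were fixed in advance. With the interval extended by 10 kb on each side the shares became 75.7% (Asxl1-/-) and 50.6% (wild type) for H3K4me2, 67.6 and 38.8% for H3K4me3, 21.0 and 24.9% for H3K27me3, and 42.8% for ASXL1, since the flanks enter. The count of members gaining H3K4me2 was 2 at 0 bp and 0 at 2500 bp, and that of members gaining H3K4me3 was 1 at 2500 bp and 1 with any overlap with the gene body. With lists of equal length 872 genes of the genome gained H3K4me3 and 324 lost it, against 484 and 536 as reported, and 3 members gained it in place of 2. Gains also outnumbered losses with islands of 1000 bp or more (514 against 506) and at 0 bp (627 against 511). Calls at transcription starts were not run, because the reference gives a strand for 1 member. A call at either end can therefore rest on the high-coordinate end alone, as for H3K4me3 at Hoxc4 in Asxl1-/- and ASXL1 at Hoxc8. No paired analysis was possible because each group is 1 library. Without read counts, the limit that depth sets on these islands is unknown.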
